A study of Mus musculus with 10 samples.

Results

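The lysosome and cathepsin genes are 37 listed genes of the 31053 in the count matrices: 9 cysteine proteases (8 cathepsins and legumain), 3 other proteases, 8 enzymes that cut sugar chains or sialic acids, 6 enzymes, activators and precursor proteins of lipid breakdown, 1 phosphatase, 7 membrane proteins and 3 transcription factors. The members were taken from that list by gene symbol, and each occurred once in every matrix. They were measured by single-cell RNA sequencing of breast tumors grown from E0771 cells, a mouse mammary cancer line, in the 4th mammary fat pad of female C57BL/6 mice aged 16 weeks and collected on day 21. WT mice were littermates of EC-AGO1-KO mice (KO), in which VE-Cadherin-Cre (Cdh5-cre), a Cre driven by an endothelial promoter, deletes floxed Ago1, so that the tumor cells and the myeloid cells described here were not the cells targeted. There were 5 WT libraries from 5 tumors and 5 KO libraries from 7 tumors, since KO 2+3 and KO 5+6 each pool 2 tumors. A single pair of libraries, WT and KO, formed batch 1, and the other 8, named by the numbers in their labels, formed batch 2 (4 WT, 4 KO).

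Lysosomes are acidic compartments in which proteins, lipids and sugar chains from endocytosis, phagocytosis and autophagy are taken apart. Macrophages are rich in them, because these cells clear dead cells and debris, and dendritic cells use the same proteases to cut antigens and the invariant chain before peptides are loaded on MHC class II. Many lysosomal genes share a short motif, read by the transcription factors Tfeb, Tfe3 and Mitf, near their start sites.

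The 10 libraries held 65298 cells that passed limits of 200 to 7000 genes and of 10% for mitochondrial UMIs (unique molecular identifiers, 1 per captured transcript), with 8323896 to 10591577 UMIs per library before that filter. Of the cells, 1815 fell in macrophage-like, 368 in monocyte-like, 576 in dendritic-like and 55512 in tumor-like clusters, and 532 barcodes (0.821% of barcodes) occurred in more than 1 library. The batches stood apart. The median macrophage-like cell had 3052 UMIs in batch 1 and 352 in batch 2, and the median tumor-like cell 11940 and 710. A level is given as CPM, the UMIs of a gene, or of several genes summed, scaled to a common total over the cells of a class in a library, with Actb left out of the totals. Of 10 macrophage markers, 7 were higher in macrophage-like cells of batch 1 and 3 in those of batch 2. C1qa, a complement gene, stood at 2631 and 230 CPM there in batches 1 and 2, Mrc1, the mannose receptor, at 668 and 577, and Adgre1, which encodes F4/80, at 372 and 496. Of 10 monocyte markers, 8 were higher in monocyte-like cells of batch 1 and 2 in those of batch 2, where Hp alone was at 0. Ly6c2 stood at 2395 and 187 CPM there in batches 1 and 2, Plac8 at 2281 and 1109 and Chil3 at 233 and 35. Ccr2, a chemokine receptor of monocytes, stood at 273 and 210, and Vcan, higher in batch 2, at 236 and 490. Of 11 dendritic markers, 6 were higher in batch 1 and 5 in batch 2. Pvt1, a tumor transcript, stood at 2128 CPM in macrophage-like, 6120 in monocyte-like and 4611 in dendritic-like cells of batch 2, against 11040 in tumor-like cells. Free RNA was estimated from tumor transcripts in myeloid classes and from myeloid transcripts in tumor-like cells, relative to barcodes of at most 50 UMIs. It came to 15.3% to 17.7% of macrophage-like UMIs in batch 1 and 43.5% to 100% (the cap of the estimate) in batch 2, to 100% in every batch 2 library for monocyte-like cells, to 9.27% to 13.6% of dendritic-like UMIs in batch 1 and 64.7% to 100% in batch 2, and to 2.5% to 6.48% of tumor-like UMIs over all libraries. The part of free RNA in the levels of batch 2 was not tested beyond the subtraction given further on. Ago1 could not be checked in its target cells: 0 UMIs were found among 58373 UMIs of 66 WT endothelial-like cells and 0 among 81895 UMIs of 128 KO endothelial-like cells, which allows up to 51.4 and 36.6 CPM (3 counts, counting error only).

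At the main settings the 37 genes together made up the largest share of the transcriptome in macrophage-like cells. CPM was not divided by gene length, as the reads were taken at the 3′ end of transcripts. In batch 1 the summed level in macrophage-like cells was 20146 in WT and 20577 in KO, in monocyte-like cells 12432 and 14565, in dendritic-like cells 6649 and 6647 and in tumor-like cells 3921 and 3644. The order of the classes was the same in both libraries. In macrophage-like cells of batch 2 the summed level was 7958, 9068, 12411 and 10135 in WT 1, 3, 4 and 5 and 11760, 10165, 10101 and 11165 in KO 1, 2+3, 4 and 5+6. With cells of at least 500 genes the batch 2 levels were 2827 to 3628 in WT and 3093 to 3674 in KO. No batch 2 cluster was named tumor-like at that limit. Dendritic-like cells then stood above macrophage-like cells in WT 4 (4170 against 3526), KO 1 (3857 against 3093) and KO 2+3 (3510 against 3172). They stood below in WT 1, 3 and 5 and KO 5+6. At the main settings the summed level in tumor-like cells of batch 2 ran from 1555 to 1867 in WT and from 1593 to 1808 in KO. Macrophage-like cells thus stood above tumor-like cells in every library, and the WT and KO libraries overlapped in both classes. Barcodes of at most 50 UMIs gave 1614 to 2206 over the 10 libraries, close to the tumor-like level of batch 2. Monocyte-like cells of batch 2 gave 4348 to 5911 in 3 WT libraries and 4347 to 8161 in 4 KO libraries, WT 4 being left out with 9 cells of this class. Dendritic-like cells gave 3683 to 6398 in WT and 4661 to 7620 in KO.

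**Figure D1:**
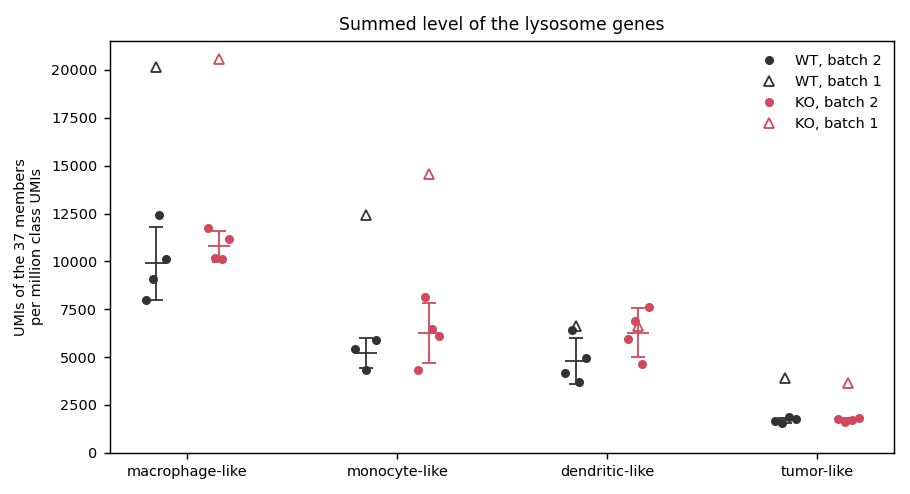
Summed level of the 37 members in CPM (vertical axis) in each cell class, for WT (dark) and KO (red). Filled points are single libraries of batch 2 with their mean and SD, and open triangles are the batch 1 libraries. The triangles lie above the batch 2 points in macrophage-like, monocyte-like and tumor-like cells, and WT and KO points overlap in every class.

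Cysteine cathepsins were the group with the largest share of the macrophage-like level in both batches. The 9 genes took 51% of all member UMIs in macrophage-like cells of batch 1 and 45% in batch 2, against 37.4% and 27% in tumor-like cells. Ctsb, an endopeptidase that also trims dipeptides, was the highest member in macrophage-like cells of batch 1, at 4108 CPM in WT and 4523 in KO, and stood at 627 CPM in tumor-like cells of the same batch. In batch 2 the Ctsb level was 764 in macrophage-like and 167 in tumor-like cells. Ctss, which cuts the invariant chain in antigen-presenting cells, reached 2021 in macrophage-like and 1913 in monocyte-like cells of batch 1, and 850 in dendritic-like cells. In tumor-like cells Ctss stood at 5 CPM in both batches, below the 100 and 103 found in barcodes of at most 50 UMIs. Ctsc, which activates serine proteases of granules, and Lgmn, the asparagine-specific protease that matures other cathepsins, lay close together in the batches, unlike Ctsb. Ctsc stood at 1191 and 1216 CPM in macrophage-like cells of batches 1 and 2, and Lgmn at 1432 and 1265. Lgmn was present in tumor-like cells at 92 and 90 CPM, Ctsc at 3 and 5.

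The remaining cysteine proteases divided by class. Ctsl, an endopeptidase, was as high in tumor-like cells (435 CPM in batch 1, 131 in batch 2) as in macrophage-like cells (400 and 159), and stood higher in macrophage-like cells in 5 of 10 libraries. Ctsz, a carboxypeptidase, was higher in macrophage-like cells in 10 of 10 libraries, at 629 against 243 in batch 1. Ctsh, an aminopeptidase, reached 362 in macrophage-like and 278 in dendritic-like cells of batch 1 and 11 in tumor-like cells. Ctsk, the collagen-cutting cathepsin of osteoclasts, and Ctso were near the limit of detection: Ctsk gave 21 and Ctso 29 UMIs in all 1815 macrophage-like cells.

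**Figure D2:**
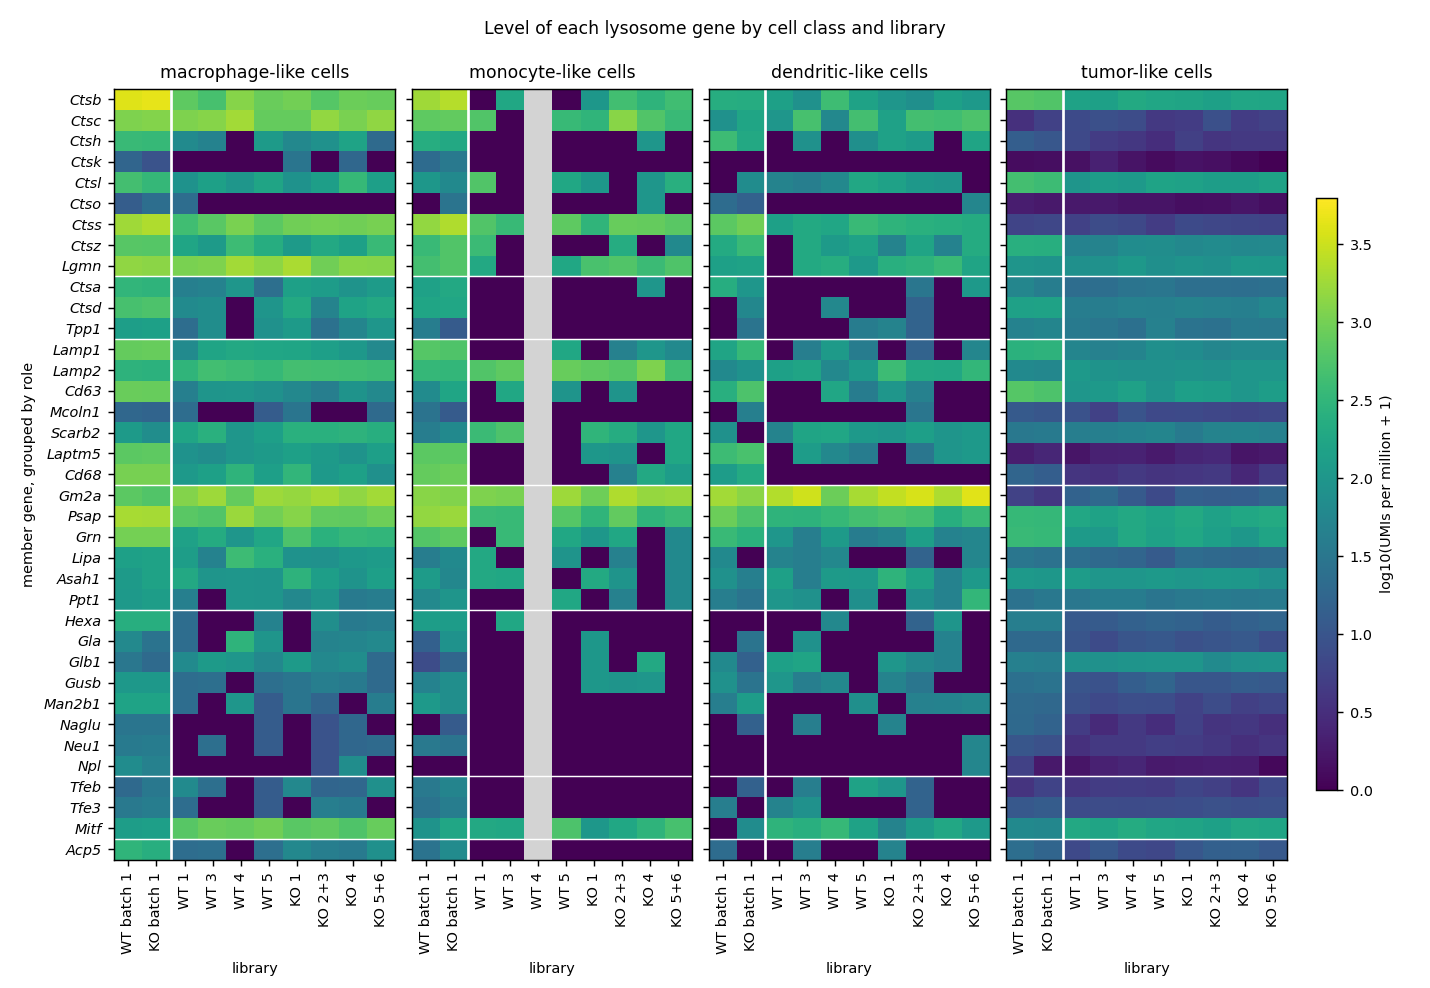
Level of each of the 37 members (rows, grouped by role) in each library (columns) of the 4 cell classes, as the log10 of CPM plus 1. A white vertical line parts batch 1 from batch 2, and grey marks the library with fewer than 10 monocyte-like cells. Ctsb, Ctss, Ctsc, Lgmn, Psap and Gm2a are bright in macrophage-like cells of every library, and Gm2a is the brightest row of dendritic-like cells.

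Among the other proteases, Ctsd, the aspartic protease of lysosomes, stood at 517 CPM in macrophage-like cells of batch 1 and 149 in tumor-like cells. Ctsa, a carboxypeptidase that protects galactosidase and sialidase, stood at 303 and 48, and Tpp1, a tripeptidyl peptidase, at 138 and 50. In batch 2 these values were 103 and 45 for Ctsd, 85 and 25 for Ctsa and 58 and 33 for Tpp1. Each gene kept the same order of the 2 classes in both batches with a smaller ratio in batch 2.

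The enzymes of sugar chains were rare transcripts in every class. The 8 genes took 3.42% of member UMIs in macrophage-like cells of batch 1 and 4.65% in tumor-like cells. Hexa, the alpha chain of hexosaminidase A, and Man2b1, the acid mannosidase, were the most abundant in macrophage-like cells of batch 1, at 241 and 161 CPM against 41 and 19 in tumor-like cells. Glb1, beta-galactosidase, went the other way: it was lower in macrophage-like than in tumor-like cells, at 25 against 43 CPM in batch 1 and 67 against 86 in batch 2, and was higher in macrophage-like cells in 3 of 10 libraries. Its macrophage-like level of batch 2 was near the 63 CPM found in barcodes of at most 50 UMIs. Gusb (beta-glucuronidase), Gla (alpha-galactosidase), Naglu (a heparan sulfate enzyme) and Neu1 (the lysosomal sialidase) ranged from 29 to 105 CPM in macrophage-like cells of batch 1. Npl, the sialic acid lyase, gave 57 CPM there and 3 in tumor-like cells of batch 1.

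Lipid genes gave the other high transcripts, and Gm2a was highest in dendritic-like cells taken as a class. Gm2a, the activator protein that presents gangliosides to hexosaminidase, made up 1557 CPM in dendritic-like cells of batch 1 and 2918 in batch 2, and the 6 genes of this group took 40.3% and 62.4% of member UMIs there. In single libraries of batch 2, Gm2a in dendritic-like cells stood at 2275, 3363, 877 and 1983 in WT 1, 3, 4 and 5 and at 2838, 3752, 2140 and 4269 in KO 1, 2+3, 4 and 5+6. WT 4, with 28 dendritic-like cells, was the lowest, and the groups overlapped. Macrophage-like cells held Gm2a at 644 and 1701 CPM, monocyte-like cells at 1256 and 1647, and tumor-like cells at 4 and 13. Within dendritic-like cells of batch 2, Gm2a stood at 4500 in the cluster led by Htr7 and Wdfy4, where 4 of 11 dendritic markers passed the naming limits. In the cluster led by Mreg and Socs2, where 7 of 11 passed, Gm2a stood at 263, below macrophage-like and monocyte-like cells. Psap, the precursor of the saposins, stood at 1969 in macrophage-like and 345 in tumor-like cells of batch 1, and Grn, progranulin, at 1022 and 360. Lipa, the acid lipase that frees cholesterol from its esters, stood at 149 and 28, and Ppt1, a thioesterase, at 122 and 29. Asah1, acid ceramidase, hardly differed between these classes, at 137 and 104 CPM in batch 1 and 134 and 103 in batch 2. Acp5, tartrate-resistant acid phosphatase, stood at 268 CPM in macrophage-like cells of batch 1, 49 in monocyte-like, 8 in dendritic-like and 20 in tumor-like cells.

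Membrane proteins split into myeloid and shared genes. Cd68, the macrophage scavenger glycoprotein, stood at 1060 CPM in macrophage-like and 835 in monocyte-like cells of batch 1 against 15 in tumor-like cells, and Laptm5, a lysosomal protein of blood cells, at 715 and 694 against 1. Lamp1, a main glycoprotein of the lysosomal membrane, stood at 817 and Cd63, a tetraspanin of late endosomes, at 839 in macrophage-like cells, with 276 and 593 in tumor-like cells. In batch 2, Cd63 was lower in macrophage-like cells (65) than in tumor-like cells (117). Barcodes of at most 50 UMIs gave 71 CPM of Cd63 in batch 2, so the macrophage-like value was near the level of free RNA. Lamp2, which also serves chaperone-mediated autophagy, and Scarb2, the receptor that carries glucocerebrosidase, had higher values in batch 2 than in batch 1: in macrophage-like cells Lamp2 stood at 278 and 405 and Scarb2 at 93 and 224 for batches 1 and 2. Mcoln1, the lysosomal calcium channel, gave 30 UMIs in all macrophage-like cells.

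Of the 37 members, 28 had their highest level in macrophage-like cells in batch 1 and 25 in batch 2. The level in macrophage-like cells was above that in tumor-like cells in all 10 libraries for 13 members and in 9 for another 9. The classes were built from expression, with the members kept out of the clustering genes, so these levels are a description and no test was made of them. Batch moved with many of them: 29 of 37 members were higher in batch 1 than in batch 2 in macrophage-like cells, 29 in monocyte-like, 19 in dendritic-like and 28 in tumor-like cells. Batch 1 was sequenced on another instrument, had more UMIs per cell and had lower estimates of free RNA in the myeloid classes. What part each had in these differences was not tested.

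**Figure D3:**
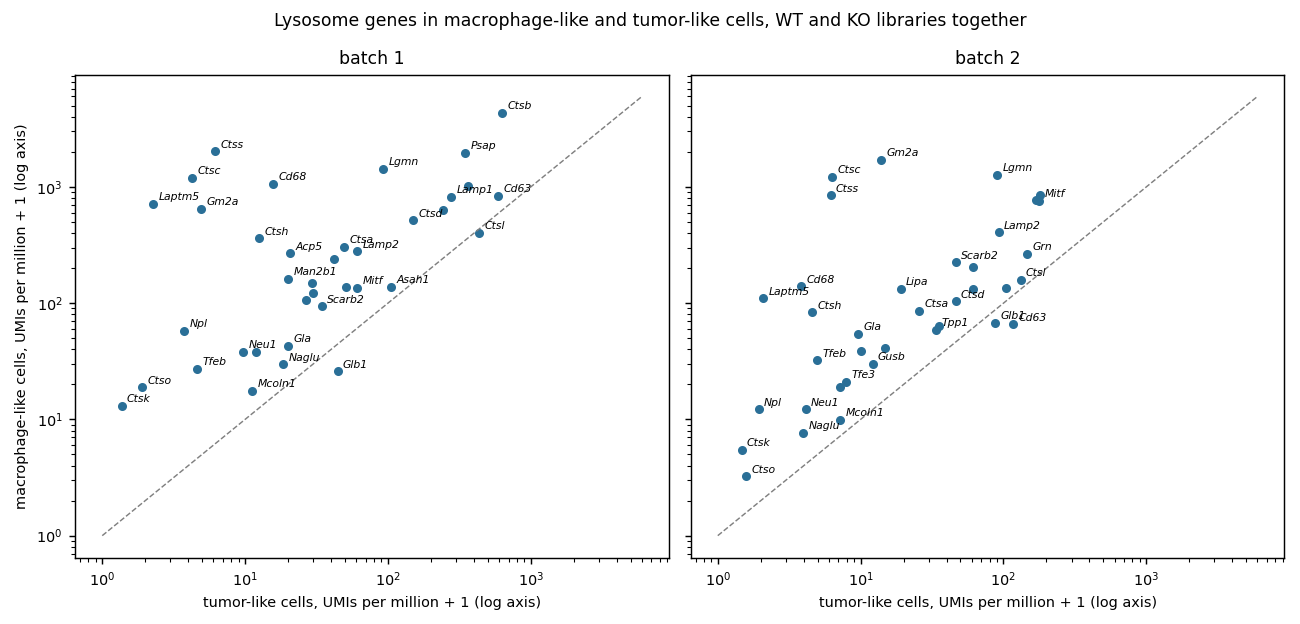
Level of each member in macrophage-like cells (vertical) against tumor-like cells (horizontal), in CPM plus 1 on log axes, with all libraries of a batch summed and the dashed line at equal levels. Names of some crowded points are left out. Ctss, Ctsc, Laptm5, Cd68 and Gm2a lie farthest above the line in batch 1, while Glb1 and Ctsl in batch 1 and Glb1 and Cd63 in batch 2 lie at or below it.

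The 3 transcription factors were unequal. Mitf stood at 135 CPM in macrophage-like cells of batch 1 and at 762 in batch 2, where it ranged from 644 to 957 in WT and from 566 to 813 in KO libraries. In tumor-like cells it stood at 60 and 177. Tfeb and Tfe3 stood at 26 and 37 CPM in macrophage-like cells of batch 1 and at 4 and 11 in tumor-like cells. To show what the members share at their promoters, the 250 bases before each RefSeq transcript start (GRCm38.p6, the patch release of mm10) were searched on both strands for CACGTG, the core of the motif that these factors read, and for TCACGTGA, a longer form that contains it. Both words read the same on either strand. Of 34 members with a promoter in the table, 10 (29.4%) held CACGTG against 6.86% of 27025 genes, and 4 (11.8%) held TCACGTGA against 0.907%. The 10 were Ctsa, Ctsd, Ctsl, Lamp1, Gla, Glb1, Naglu, Lgmn, Mcoln1 and Npl. Ctsb, Ctsh and Asah1 were not matched. The 4 windows shown are the 100 bases just before the start of Lamp1, with the most copies, and of Mcoln1, Ctsd and Glb1, written 5′ to 3′ along the strand of the gene, with CACGTG in capitals. None of the 4 overlapped a gene body in the RefSeq table.
Lamp1: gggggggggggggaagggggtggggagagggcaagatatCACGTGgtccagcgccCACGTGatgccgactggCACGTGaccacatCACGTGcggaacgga
Mcoln1: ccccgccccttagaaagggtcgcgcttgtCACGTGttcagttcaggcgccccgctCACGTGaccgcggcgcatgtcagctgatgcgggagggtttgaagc
Ctsd: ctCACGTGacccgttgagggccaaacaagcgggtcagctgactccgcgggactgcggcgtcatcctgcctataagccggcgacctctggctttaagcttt
Glb1: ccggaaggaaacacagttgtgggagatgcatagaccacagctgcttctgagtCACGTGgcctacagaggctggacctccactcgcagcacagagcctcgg

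They lie at chr8:13159061-13159160 (plus strand) for Lamp1, chr8:3500419-3500518 (plus) for Mcoln1, chr7:142387828-142387927 (minus) for Ctsd and chr9:114400978-114401077 (plus) for Glb1. Lamp1 carried 4 copies, the nearest beginning 15 bases before the start, and Mcoln1 carried 2, of which 1 had the longer form. Ctsd had 1 copy, in the longer form, at 98 bases within the window shown and another farther up. Glb1 had 1 copy at 48 bases. For Ctsa, Ctsl, Naglu and Lgmn the 100 bases before the start lay inside the body of the same gene. A match of letters is not a bound site. The genes with the word differed widely in their level in macrophage-like cells of batch 1, from 17 CPM for Mcoln1 to 817 for Lamp1 and 1432 for Lgmn.

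Within macrophage-like cells of batch 1, the 2 main clusters differed in their lysosome genes. A cluster of 181 cells led by Ccl8, Pf4, Mrc1 and Apoe had a summed level of 23370 CPM in WT and 22990 in KO, and a cluster of 294 cells led by H2-Eb1, H2-Ab1, Cd74 and Mmp12 had 17970 and 19150. Npl stood at 155 and 97.3 CPM in the Ccl8 cluster and at 0 and 2.61 in the MHC class II cluster. Ctsd stood at 736 and 735 against 310 and 391, and Ctsb at 5218 and 5355 against 3375 and 3976. Gm2a went the other way, at 536 and 414 in the Ccl8 cluster and 875 and 793 in the MHC class II cluster. These values come from 1 WT and 1 KO library and are a description of clusters. In batch 2, dendritic-like cells fell in 2 clusters with very unlike Gm2a levels. In 354 cells led by Htr7, Wdfy4 and MHC class II genes, Gm2a ranged from 1571 to 5666 CPM over the 8 libraries. In 163 cells led by Mreg and Socs2 it ranged from 0 to 349, and every library had the lower value in this second cluster. Their summed member levels were 7962 and 2255 CPM.

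The second question was whether loss of Ago1 in the endothelium went with other levels of these genes in myeloid and tumor cells. It was asked on UMIs summed per library and class, with batch in the model (edgeR quasi-likelihood test, Benjamini-Hochberg adjustment over all genes tested). No member passed an adjusted p of 0.05 in any class. In macrophage-like cells 0 of 23 tested members were called, with 0.0% of all 2108 genes tested called, in monocyte-like cells 0 of 4 (0.0% of 342), in dendritic-like cells 0 of 4 (0.0% of 844) and in tumor-like cells 0 of 33 (0.0% of 13083). At an unadjusted p under 0.05 there were 1, 0, 0 and 1 members, and 89, 13, 28 and 766 genes in all. DESeq2 also called no member, and it called 0, 0, 0 and 3 genes. The median log2 fold change of the members, KO over WT, was 0.012 in macrophage-like cells beside -0.027 over all genes tested, 0.29 beside -0.008 in monocyte-like, 0.37 beside 0.018 in dendritic-like and -0.046 beside 0.004 in tumor-like cells. Over the alternatives the median ran from -0.080 to 0.50 in monocyte-like and from 0.050 to 0.61 in dendritic-like cells. The 95% intervals of all 23 members in macrophage-like cells and all 33 in tumor-like cells lay within a 2-fold change in either direction. In monocyte-like and dendritic-like cells 2 of 4 did so in each, and the widest interval reached 1.58 and 1.39 on the log2 scale. The other members had too few UMIs to be tested. All of these intervals rest on a fit with the same fold change in both batches. Without the WT or without the KO library of batch 1, the macrophage-like median was 0.25, with 19 members positive and 5 negative. Grn in macrophage-like cells then reached 1.03, past a 2-fold change.

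**Figure D4:**
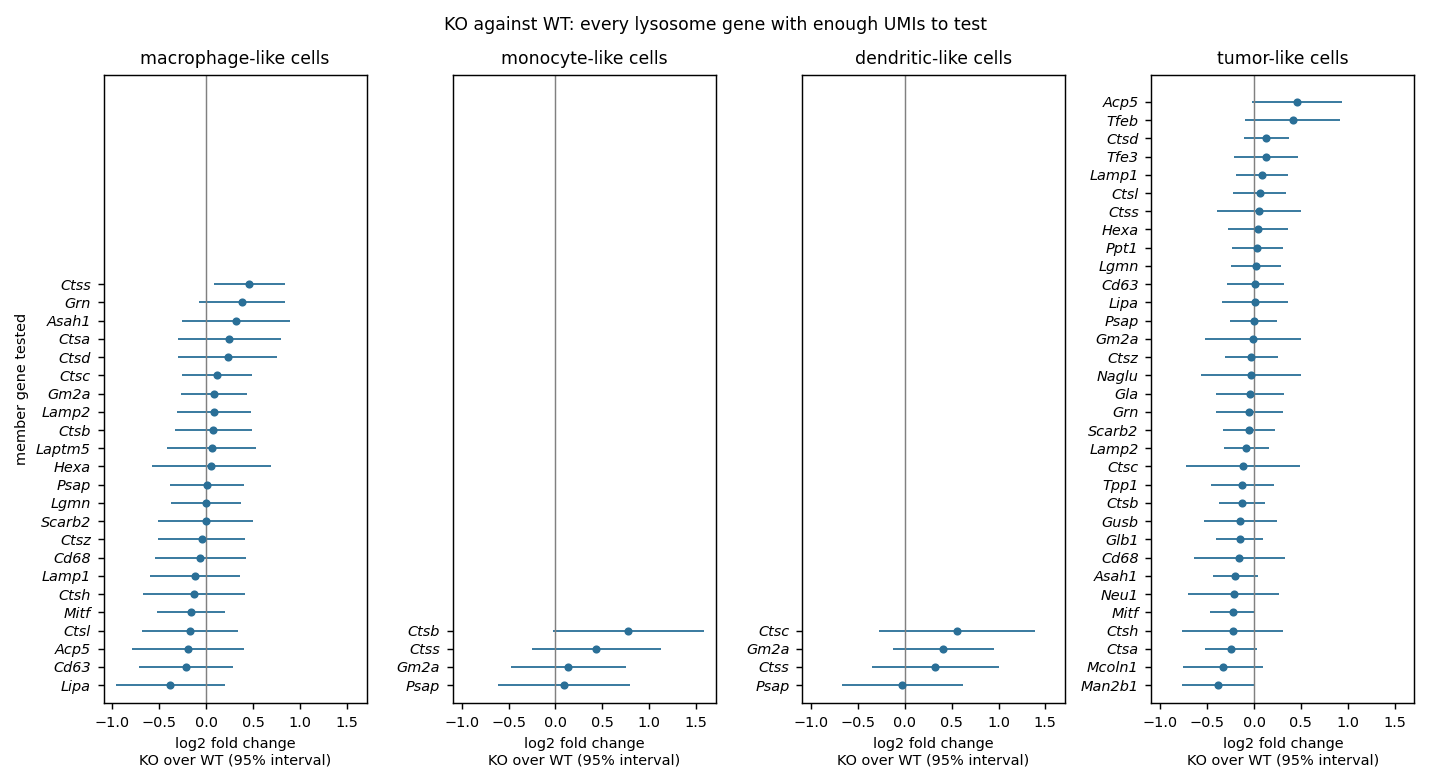
Log2 fold change of KO over WT (horizontal) with its 95% interval for each member tested (rows, ordered by fold change) in the 4 cell classes. Fold changes ran from -0.38 to 0.46 in macrophage-like cells and from -0.39 to 0.46 in tumor-like cells, and intervals were wider in monocyte-like and dendritic-like cells, where 4 members could be tested.

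In macrophage-like cells the 4 members with the smallest p were Ctss, Grn, Lipa and Asah1. Ctss stood at 1828 CPM in WT and 2193 in KO of batch 1. In batch 2 it stood at 429, 663, 1092 and 701 in WT 1, 3, 4 and 5 and at 949, 999, 938 and 1031 in KO 1, 2+3, 4 and 5+6. The KO values were close together and above 3 of the 4 WT values, WT 4 with 31 macrophage-like cells being the exception. Free RNA was estimated at 100%, 78.1%, 100% and 43.5% of macrophage-like UMIs in WT 1, 3, 4 and 5. In KO 1, 2+3, 4 and 5+6 the estimates were 45.4%, 54.6%, 75.5% and 58.3%. After subtraction of free RNA, 0 of 20 members tested had an unadjusted p under 0.05 (edgeR). The part of free RNA was not tested further. In the main fit the log2 fold change of Ctss was 0.46 (SE 0.19, 95% interval 0.078 to 0.84, adjusted p = 0.906). It was 0.60 in batch 2 alone, 0.66 without either library of batch 1, 0.24 without a batch term, 0.29 at a finer clustering (Leiden resolution 2) and 0.13 with cells of at least 500 genes. Grn stood at 1020 and 1023 in WT and KO of batch 1, and in batch 2 at 150, 213, 99.3 and 175 in WT 1, 3, 4 and 5 and at 546, 264, 336 and 317 in KO 1, 2+3, 4 and 5+6. These batch 2 levels rest on 7, 9, 1 and 15 UMIs in WT and on 19, 32, 19 and 16 in KO. The groups did not overlap in batch 2 and were level in batch 1, with a log2 fold change of 0.38 (SE 0.23, adjusted p = 0.999). Without the WT library of batch 1 it was 1.03 and without the KO library of batch 1 it was 1.03. With cells of at least 500 genes the Grn fold change was -0.11. Lipa stood at 129, 47.4, 397 and 257 in WT and 86.3, 82.6, 106 and 119 in KO of batch 2, where the groups overlapped and WT values were widely spread, and at 143 and 156 in batch 1 (log2 fold change -0.38, SE 0.29, adjusted p = 0.999). The Lipa level of 397 in WT 4 rests on 4 UMIs. Asah1 stood at 193, 94.7, 99.3 and 93.4 in WT and 288, 132, 88.4 and 139 in KO of batch 2, with overlap, and at 115 and 156 in batch 1 (0.32, SE 0.29, adjusted p = 0.999).

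Grn was the only tested member of macrophage-like cells whose KO libraries all lay above the WT libraries of batch 2 and above WT in batch 1, 1 of 23 beside 1.14% of all genes tested, and no member lay below in the same way, where 0.854% of genes did. In tumor-like cells Tfe3 was such a member, 1 of 33 beside 1.48%, with none below beside 0.405%. Its levels were 6.34, 6.74, 6.32 and 6.75 CPM in WT 1, 3, 4 and 5 and 6.96, 7.79, 7.08 and 7.44 in KO 1, 2+3, 4 and 5+6, and 9.96 and 11.9 in WT and KO of batch 1, with a log2 fold change of 0.13 (SE 0.16, adjusted p = 0.918). No tested member was apart in monocyte-like cells (0 of 4 beside 3.22% above and 0.585% below) or in dendritic-like cells (0 of 4 beside 1.18% and 0.592%). Lgmn in monocyte-like and Lamp2 in dendritic-like cells had KO levels above the WT levels within each batch but too few UMIs to be tested. The shares above cover tested genes only, so neither gene has a share of all genes to be read against. Lgmn in monocyte-like cells of batch 2 rests on 1, 0 and 2 UMIs in WT 1, 3 and 5. Lamp2 stood at 145, 164, 58.5 and 114 in WT and 398, 197, 190 and 324 in KO dendritic-like cells of batch 2. These levels rest on 3, 4, 1 and 3 UMIs in WT and on 8, 13, 4 and 6 in KO.

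In monocyte-like cells the tested members were Ctsb, Ctss, Gm2a and Psap. Ctsb stood at 1821 in WT and 2385 in KO of batch 1, at 0, 181 and 0 in WT 1, 3 and 5 and at 101, 451, 294 and 433 in KO 1, 2+3, 4 and 5+6. The WT values of batch 2 rest on 5186 to 10997 UMIs per library, in which a level of 181 is a single UMI. The log2 fold change was 0.78 (SE 0.41, 95% interval -0.027 to 1.58, adjusted p = 0.993). It was 2.88 without the WT library of batch 1, 2.87 without the KO library of batch 1 and 0.32 at Leiden resolution 2. Ctss stood at 1519 and 2244 in batch 1, at 578, 362 and 727 in WT and at 303, 812, 784 and 680 in KO of batch 2, with overlap (0.44, SE 0.35, adjusted p = 0.993). Gm2a (0.14, SE 0.31) and Psap (0.091, SE 0.35) had the same adjusted p of 0.993, and their direction turned under other settings.

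In dendritic-like cells the tested members were Gm2a, Ctsc, Ctss and Psap. Gm2a, whose batch 2 library values stand above, stood at 1855 in WT and 1355 in KO of batch 1, where KO was lower. Over both batches the log2 fold change of Gm2a was 0.41 (SE 0.27, adjusted p = 0.994). Ctsc stood at 83.4 and 169 in WT and KO of batch 1, at 96.8, 492, 58.5 and 458 in WT and at 149, 456, 428 and 540 in KO of batch 2, with overlap (0.56, SE 0.42, adjusted p = 0.994). Ctss stood at 688 and 960 in batch 1, at 145, 205, 175 and 381 in WT and at 299, 258, 238 and 216 in KO of batch 2 (0.33, SE 0.34, adjusted p = 0.994). WT 5 had the highest Ctss value of batch 2 and the other 3 WT libraries lay below all KO libraries. Psap had a log2 fold change of -0.025 (SE 0.32), and its direction turned under other settings. Ctss was positive in all 3 myeloid classes. The classes come from the same libraries, so that they are not separate evidence, and differences between classes were not tested.

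**Figure D5:**
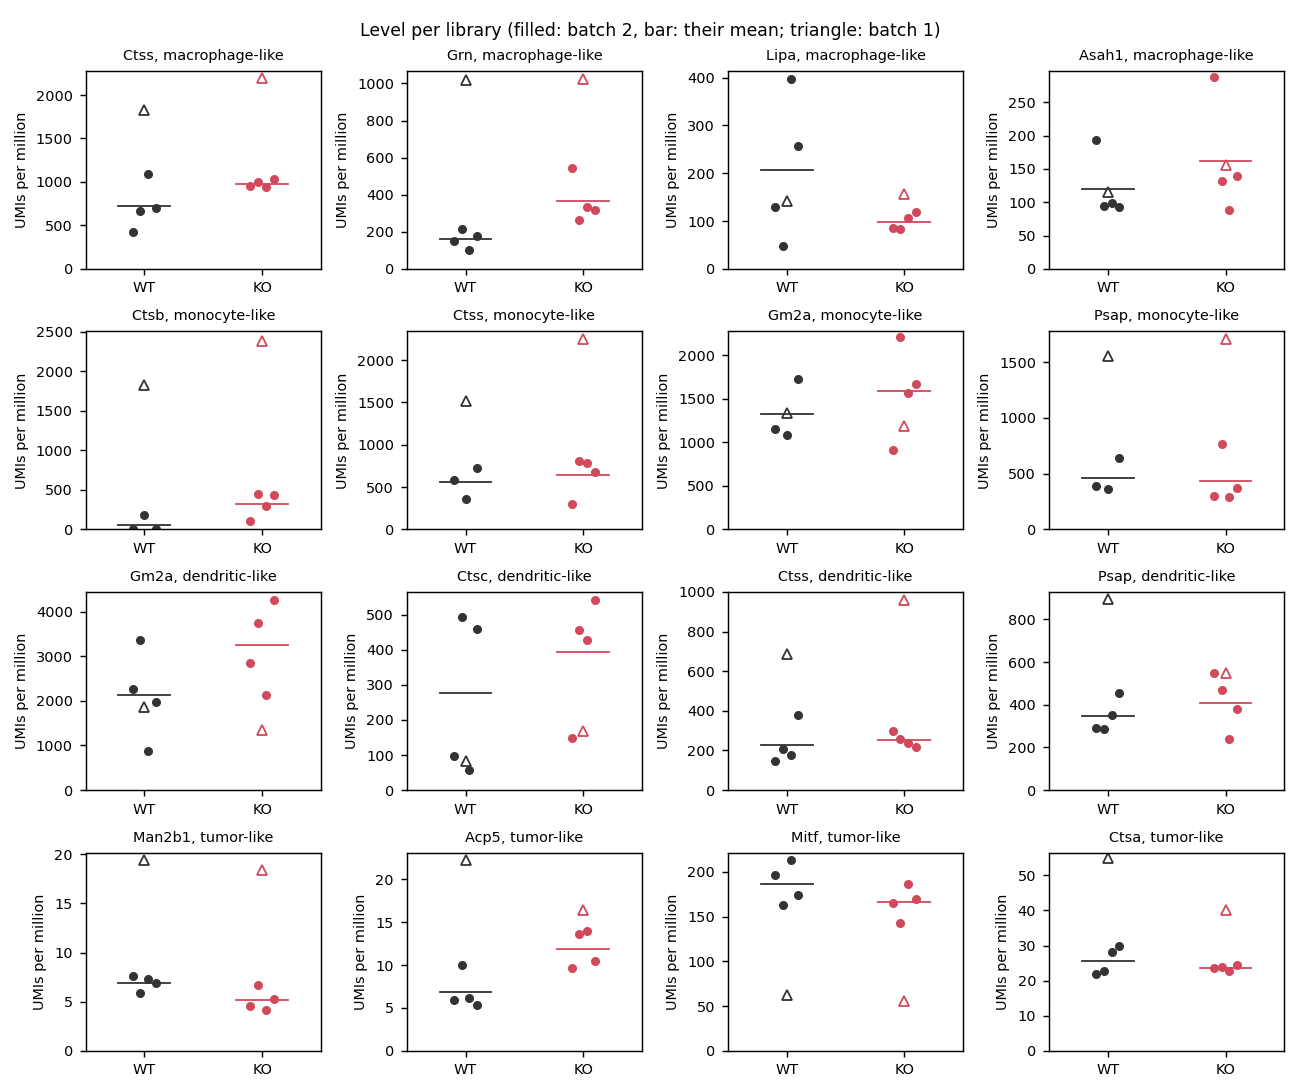
CPM of the 4 members with the smallest p in each cell class (rows), for WT (dark) and KO (red). Filled points are libraries of batch 2 with a bar at their mean, open triangles are batch 1. In macrophage-like cells KO values of Ctss lie between 938 and 1031 in batch 2 while WT values spread from 429 to 1092.

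Tumor-like cells gave the narrowest intervals, from 4492000 to 6669100 UMIs per library (rounded). Man2b1 stood at 19.4 and 18.4 CPM in WT and KO of batch 1, at 7.61, 5.92, 7.28 and 6.9 in WT and at 4.58, 6.68, 4.17 and 5.23 in KO of batch 2. The groups overlapped through KO 2+3, and the log2 fold change was -0.39 (SE 0.18, adjusted p = 0.827). Acp5 stood at 22.3 and 16.4 in batch 1, at 5.87, 10, 6.13 and 5.4 in WT and at 9.7, 13.6, 14 and 10.5 in KO of batch 2. KO was lower than WT in batch 1 and the KO values of batch 2 were above 3 of the 4 WT values, with a log2 fold change of 0.46 (SE 0.23, adjusted p = 0.827). Mitf stood at 62.8 and 55.7 in batch 1, at 197, 163, 214 and 174 in WT and at 165, 142, 186 and 169 in KO of batch 2, with overlap (-0.23, SE 0.11, adjusted p = 0.827). Ctsa stood at 54.9 and 40.1 in batch 1, at 21.9, 22.7, 28.2 and 30 in WT and at 23.6, 23.8, 22.7 and 24.5 in KO of batch 2, with overlap (-0.24, SE 0.13, adjusted p = 0.83). The abundant members Ctsb (-0.13, SE 0.12), Psap (-0.0055, SE 0.12), Cd63 (0.015, SE 0.14), Ctsl (0.059, SE 0.13) and Grn (-0.05, SE 0.17) had 95% intervals that lay between -0.41 and 0.34 on the log2 scale.

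Other genes of lysosomal function were counted in the same fits, from lists of the v-ATPase, further hydrolases, sorting receptors, membrane transporters, cathepsin inhibitors and nutrient sensing, 72 genes in all. Of these, 22 were tested in macrophage-like, 3 in monocyte-like, 5 in dendritic-like and 63 in tumor-like cells, and 0 were called in either direction. At an unadjusted p under 0.05 there were 2, 0, 0 and 6. Their median log2 fold changes were -0.047, -0.096, 0.26 and -0.067. In macrophage-like cells the smallest p belonged to 2 subunits of the proton pump that acidifies the lysosome, Atp6v0a1 (-0.68, SE 0.29, adjusted p = 0.906) and Atp6v1h (-0.56, SE 0.25, adjusted p = 0.95), and the 10 v-ATPase genes tested had a median of -0.2. Atp6v0a1 stood at 129, 189, 199 and 339 CPM in WT 1, 3, 4 and 5 and at 57.5, 82.6, 142 and 139 in KO 1, 2+3, 4 and 5+6, with overlap through WT 1. In tumor-like cells they were Npc2, which binds cholesterol in the lysosome (0.32, SE 0.12), and Laptm4b (-0.36, SE 0.14), both with adjusted p = 0.827. Npc2 stood at 119, 141, 130 and 120 in WT and 161, 176, 187 and 202 in KO tumor-like cells of batch 2, without overlap, and at 495 and 449 in WT and KO of batch 1, the other way round. In monocyte-like cells they were Cst3, cystatin C (-0.52, SE 0.42), and Npc2 (0.35, SE 0.37), and in dendritic-like cells Rab7, the small GTPase of late endosomes (0.48, SE 0.36), and Cst3 (0.29, SE 0.29), with adjusted p of 0.993 and 0.994.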

How the data were processed

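Tumors from 5 WT and 7 KO mice were measured in 10 libraries with the 10x Genomics 3′ v3 kit. The matrices that the authors deposited hold unnormalized UMI counts, empty droplets included, made with Cell Ranger 7.1.0 (submitters' processing notes) on mm10. Their Seurat clustering, annotation and tests over cells were not used here.

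Barcodes were kept at 200 to 7000 genes and up to 10% mitochondrial UMIs, then clustered separately in each batch (2000 variable genes, 30 components, 15 neighbours, Leiden resolution 1, scanpy 1.11.5, leidenalg 0.10.2), since joint clusters separated by batch. The members, Ago1 and Actb (1.99% to 17% of UMIs) were kept out of the clustering genes. Clusters were named from marker lists (at least 3 markers 2-fold above the other clusters, or above immune clusters for tumor-like cells). Immune and stromal clusters of batch 2 were clustered again, and the tumor-like name was not given in that round. Clusters that met no rule stayed unnamed (3711 cells). So did a cluster with few UMIs per cell for its library and no tumor marker among its leading genes. These naming limits were set after cell numbers had been seen and before WT and KO were compared in this work. Doublets were not removed. UMIs were summed per library and class, with at least 10 cells, and tested in edgeR 4.0.16 (TMM, filterByExpr, batch term, R 4.3.3). The script was tested on simulated data. Each standard error was computed as the fold change over the root of F, and 95% intervals from the t distribution of the fit. DESeq2 1.42.0 was an alternative.

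The members and gene lists were chosen with earlier results of these data known. Fold changes are given for members called, or else for the 4 with the smallest p in each class, and for the 2 other lysosome genes with the smallest p. Each mouse tumor or pool was 1 replicate. Free RNA was the profile of barcodes of 1 to 50 UMIs; scaled by Pvt1 and Cdh13 in myeloid classes and by C1qa, C1qb, C1qc, Lyz2, Tyrobp and Fcer1g in tumor-like cells, it was subtracted as an alternative. Floors cover counting error only.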

Additional observations from a re-analysis of the deposited data

Results flagged for a closer look

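Of 35 groups of 4 batch 2 libraries checked with Dixon's criterion, 3 held a library far from the others, where chance gives about 1 in 20. Asah1 in macrophage-like cells stood at 193 CPM in WT 1, with the other 3 WT libraries between 93.4 and 99.3. These levels rest on 9 UMIs in WT 1 and on 4, 1 and 8 in WT 3, 4 and 5. Psap in monocyte-like cells stood at 766 in KO 2+3, with the other 3 KO libraries between 294 and 371. KO 2+3 pools 2 tumors and held the most monocyte-like cells of batch 2, 53. Its Psap level rests on 17 UMIs, and those of KO 1, 4 and 5+6 on 3, 3 and 6. Acp5 in tumor-like cells stood at 10 in WT 3, with the other 3 WT libraries between 5.4 and 6.13. The cause was not tested.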

How the results depend on the processing

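No member was called in any class under any alternative that was run. Counts of all genes called moved in macrophage-like cells to 11 without the filter on low counts, 2 with the replicate block, 6 at Leiden resolution 0.5, 1 with at least 500 genes per cell and 1 with up to 20% mitochondrial UMIs, and ranged from 0 to 4 with 1 library left out. Without the filter there were 2 in monocyte-like, 1 in dendritic-like and 35 in tumor-like cells, and DESeq2 called 3 in tumor-like cells. Correlations of same-numbered libraries ran from -0.23 to 0.17 in tumor-like cells, so the numbers were not taken to pair samples. The replicate block in place of batch called 2, 0, 0 and 0 genes and 0 members in the 4 classes. The members' median log2 fold change in macrophage-like cells moved to 0.18 in batch 2 alone and -0.13 with at least 500 genes per cell, and ranged from -0.084 to 0.25 with 1 library left out. In tumor-like cells it was 0.0065 without TMM, -0.081 without the filter, -0.080 without both pooled KO libraries and -0.013 after subtraction of free RNA, and ranged from -0.088 to -0.017 with 1 library left out. In monocyte-like cells the median was 0.074 at Leiden resolution 2, 0.076 with at least 20 cells per library and -0.080 without a batch term, and ranged from 0.22 to 0.47 with 1 library left out. In dendritic-like cells it was 0.050 without a batch term and ranged from 0.19 (without WT of batch 1) to 0.45.

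Other log2 fold changes that moved by over 1.5 times kept their direction. Lipa in macrophage-like cells ran from -0.84 (without WT of batch 1) to -0.25. In dendritic-like cells Gm2a ran from 0.085 (without both pooled KO libraries) to 0.62 (without KO of batch 1), Ctsc from 0.32 (without both pooled KO libraries) to 0.84 (without WT 5) and Ctss from 0.12 (without WT of batch 1) to 0.56 (without WT 5). Ctss in monocyte-like cells ran from 0.33 to 0.66 (without WT 5). In tumor-like cells Acp5 ran from 0.27 (Leiden resolution 0.5) to 0.76 (batch 2 alone), and Man2b1 from -0.50 to -0.24 (Leiden resolution 0.5).

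Directions turned as follows, and the cause was not tested. Grn in macrophage-like cells was -0.11 with at least 500 genes per cell. Gm2a in monocyte-like cells was -0.080 without a batch term, -0.097 without both pooled KO libraries, -0.17 at Leiden resolution 2, -0.082 with up to 20% mitochondrial UMIs and -0.066 with at least 20 cells per library. Psap in monocyte-like cells was -0.013 with DESeq2, -0.080 without both pooled KO libraries and -0.012 with at least 20 cells, and ranged from -0.035 (without KO 2+3) to 0.30 with 1 library left out. Psap in dendritic-like cells was 0.084 without the filter and 0.11 at Leiden resolution 2, and ranged from -0.15 to 0.28 with 1 library left out (positive without WT or KO of batch 1, WT 5 or KO 4).

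The mean summed level of batch 2 (WT and KO, in CPM) moved in macrophage-like cells to 14800 and 14700 after subtraction of free RNA and to 3210 and 3310 with at least 500 genes per cell, to 11700 and 11900 at Leiden resolution 2 and to 8130 and 8660 with Actb kept. In monocyte-like cells it moved to 10200 and 9870 at Leiden resolution 2, 7020 and 8340 after subtraction and 7040 and 7940 with up to 20% mitochondrial UMIs, and to 4270 and 5190 with Actb kept. In dendritic-like cells it moved to 6510 and 8640 after subtraction and 3030 and 3440 with at least 500 genes, and to 3820 and 4970 with Actb kept. In tumor-like cells it was 1480 and 1520 with Actb kept. Resolution 0.5 for monocyte-like cells, and at least 500 genes for monocyte-like and tumor-like cells, could not be fitted, since no batch 2 cluster was given the class name. Cells did pass the limit of 500 genes there, as the median cell of WT 5 had 724.5 genes. Values of the other classes at this limit rest on the same naming.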

Other observations

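Besides the group comparison, the lysosome genes of macrophage-like cells differed in how far the batches lay apart. Cd63 stood at 839 CPM in batch 1 and 65 in batch 2, Cd68 at 1060 and 139, Laptm5 at 715 and 110, Acp5 at 268 and 38 and Lamp1 at 817 and 132. Ctsc, Lgmn, Asah1 and Lipa lay close together in the batches, at 1191 and 1216, 1432 and 1265, 137 and 134, and 149 and 132. Gm2a, Mitf, Lamp2 and Scarb2 had the higher value in batch 2, at 644 and 1701, 135 and 762, 278 and 405, and 93 and 224. In tumor-like cells these 4 also had the higher value in batch 2, at 4 and 13, 60 and 177, 60 and 92, and 33 and 45. The batches differ in sequencing instrument, depth and mitochondrial share together, which cannot be told apart.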
